A study of Arabidopsis thaliana with 9 samples.

Results

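Cambium nuclei were examined in a droplet library (10x Genomics) made from whole hypocotyls of 4-week-old Arabidopsis plants. They were chosen by 5 genes that mark the vascular cambium in this organ, PXY, WOX4, ANT, SMXL5 and LBD11. A nucleus was taken when its barcode held over 1200 and under 10000 counts in all and at least 3 counts of these genes, from at least 2 of them. The rule found 257 nuclei among 2081 passing nuclei, 12.3% of them (95% exact binomial interval 11 to 13.8%), and 4353 nuclei passed over the 8 libraries read. The other 1824 passing nuclei of the same library were the reference.

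The plants of the droplet library were Col-0 carrying 2 reporter transgenes, PXYpro:H4-GFP and SMXL5pro:H2B-RFP, grown with 10 h of light a day. The same line at the same age gave 6 plates of total-RNA sequencing of single nuclei (VASA-seq). Nuclei were sorted for reporter fluorescence on 3 plates (VASA cambium) and without that gate on 3 plates (VASA all hypocotyl). Each gate was 1 preparation of about 100 pooled hypocotyls, so p-values measure the spread between plates only. A droplet library of Col-0 plants without the reporters (WT), from about 200 hypocotyls at 19 days, served as a further set, and the d14 library was not used here. Droplet comparisons rest on 1 library each and carry no test, and their intervals cover counting error only.

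The vascular cambium is a ring of dividing cells that adds xylem towards the inside of the organ and phloem towards the outside. PXY is the receptor of the peptide TDIF, which is made by the phloem genes CLE41 and CLE44, and WOX4 is a homeobox factor that acts downstream of that receptor. ANT is an AP2-type factor of organ growth and cambial division, LBD11 is a LOB-domain factor of cambial activity, and SMXL5 promotes phloem formation. Reporters for PXY mark the xylem side of the cambium and reporters for SMXL5 its phloem side. The H4-GFP and H2B-RFP transcripts (H4GFP and H2BRFP below) were not used by the rule, although H4GFP has the promoter of PXY and H2BRFP that of SMXL5.

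The study detected 5 of its cambium genes by in situ hybridisation, and the first probe pair of each is printed here because these genes were among those higher in the cambium nuclei. The pairs come from the study's oligo list. Capitals mark the 25 bases that match the gene and lower case the part that starts the amplification chain. Of 120 oligos in that list, 117 matched the genome exactly once inside their gene, and 3 did not. ATHMP25 encodes a heavy-metal-associated protein, FH10 a formin, AT2G01610 an invertase or pectin methylesterase inhibitor, AT1G29980 a DUF642 cell wall protein and AT4G22730 a leucine-rich repeat receptor-like kinase.

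ATHMP25 first: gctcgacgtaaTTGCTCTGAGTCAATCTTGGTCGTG
ATHMP25 second: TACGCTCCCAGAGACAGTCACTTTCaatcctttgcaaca
FH10 first: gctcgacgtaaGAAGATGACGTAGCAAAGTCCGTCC
FH10 second: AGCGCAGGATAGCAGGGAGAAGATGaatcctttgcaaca
AT2G01610 first: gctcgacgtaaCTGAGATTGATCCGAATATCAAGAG
AT2G01610 second: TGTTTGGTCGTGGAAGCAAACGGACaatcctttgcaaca
AT1G29980 first: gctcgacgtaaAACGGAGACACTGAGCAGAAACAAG
AT1G29980 second: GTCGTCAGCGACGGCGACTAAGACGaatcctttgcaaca
AT4G22730 first: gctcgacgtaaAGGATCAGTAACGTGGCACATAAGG
AT4G22730 second: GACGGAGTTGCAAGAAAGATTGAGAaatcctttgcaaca

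In the RefSeq TAIR10.1 genome the first oligos of the pairs matched chr3:1854332-1854356 (ATHMP25), chr3:2407438-2407462 (FH10), chr2:274714-274738 (AT2G01610), chr1:10505929-10505953 (AT1G29980) and chr4:11941391-11941415 (AT4G22730). All 10 oligos lay in coding exons on the strand opposite to the gene, and each pair left a gap of 2 bases. The 5 genes had ratios of 3.69 to 6.58 between cambium nuclei and other nuclei in the droplet library. On the plates, AT2G01610 had 287, 292 and 293 CPM (counts per 1000000, with library sizes scaled by TMM) in the rule nuclei of the VASA cambium plates and 205, 303 and 437 CPM in those of the VASA all hypocotyl plates. Other nuclei of the same plates had 45.3 to 81.6 CPM, so the groups did not overlap, as for 940 of 11500 genes (8.17%). AT1G29980 had 95.7, 88.9 and 129 CPM in rule nuclei of the VASA cambium plates and 105, 76.6 and 19.0 CPM in those of the VASA all hypocotyl plates, against 13.4 to 29.3 CPM in other nuclei. Here 1 value of the rule nuclei fell among those of the other nuclei. The study chose these genes and INCENP, ATLP-1 and AT4G16970 from these libraries, so their direction is not independent evidence. All 8 were called higher in rule nuclei on the plates, where 15% of all genes tested were called in either direction.

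Passing nuclei held 21.3% of the 21650313 counts in the droplet library. Cambium nuclei had a median of 2040 counts and 1343 genes, and other nuclei 1833 counts and 1212 genes. Mitochondrial counts were at a median of 0.05% in both, and chloroplast counts at 0.14% and 0.13%. Passing plate nuclei had medians of 4086 to 6059 counts on the 6 plates, and WT nuclei 2030 counts. One barcode was shared with the WT library. A doublet caller marked 1 of 2081 nuclei and so did not work, and of the 103 nuclei with the highest doublet scores 12 were cambium nuclei.

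The rule genes were used to choose the nuclei, and their values are a description. WOX4 gave the largest share of the rule counts in cambium nuclei, 46.5%, with 1062 counts there and 508 in other nuclei (1769 and 127 CPM). ANT had 939 and 62.9 CPM, PXY 428 and 76.4 CPM, LBD11 376 and 21.7 CPM, and SMXL5 290 and 17.7 CPM. WOX4 was counted in 75.5% of cambium nuclei and ANT in 74.7%, while PXY was counted in 50.2%, SMXL5 in 32.7% and LBD11 in 23.7%. The most frequent combinations were WOX4 with ANT (51 nuclei), PXY with WOX4 (38), these 3 together (29) and ANT with SMXL5 (28). Of the 257 nuclei, 150 had 2 of the genes, 73 had 3, 29 had 4 and 5 had all 5. ANT was counted in 84.5% of the 84 cambium nuclei with SMXL5, and WOX4 in 47.6%. Of the 129 cambium nuclei with PXY, WOX4 was counted in 77.5% and SMXL5 in 24.8%.

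Most cambium nuclei stood clear of the threshold and some did not. The rule sum had a median of 7 counts and a maximum of 35, and 28 nuclei held the minimum of 3. Just outside, 49 nuclei had 2 counts from 2 genes and 125 had 3 or more counts from 1 gene. H4GFP gave 4 counts and H2BRFP 9 in the 28 nuclei just inside, against 11 and 3 counts in the 49 just outside. Free RNA was read from 818797 barcodes of 1 to 100 counts. The 5 genes made up 562 CPM there, which lies between the 3803 CPM of cambium nuclei and the 305 CPM of other nuclei.

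**Figure D1:**
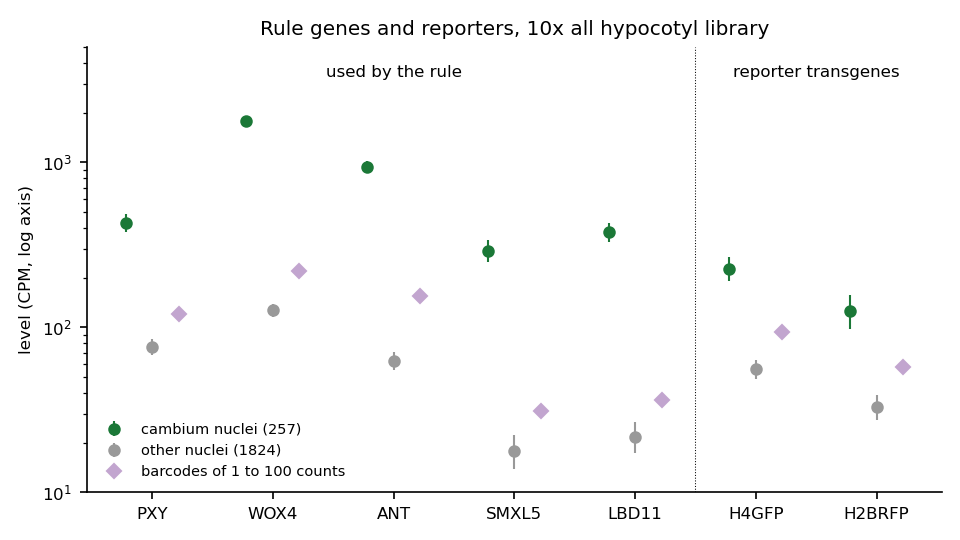
Level in CPM (log axis) of the 5 rule genes and the 2 reporter transgenes in 257 cambium nuclei, 1824 other nuclei and barcodes of 1 to 100 counts of the droplet library, with 95% counting intervals on the first 2. The rule genes are higher in cambium nuclei by construction, and H4GFP (227 against 55.6 CPM) and H2BRFP (125 against 32.9 CPM), which the rule did not use, lay above both other sets.

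Both reporter transcripts, which the rule did not use, were higher in cambium nuclei. In the droplet library H4GFP reached 227 CPM in cambium nuclei, against 55.6 CPM in other nuclei, a ratio of 4.07 (95% interval 3.26 to 5.06). H2BRFP reached 125 CPM in cambium nuclei, against 32.9 CPM in other nuclei, a ratio of 3.79 (2.82 to 5.07). With every nucleus thinned to 1200 counts, H4GFP was found in 19.8% of cambium nuclei and 4.77% of other nuclei (30.4% and 7.18% unthinned). H2BRFP was found in 10.9% and 3.89% after thinning (20.2% and 5.37% unthinned). As a background, each transcript was found after thinning in 1.64% of 61 nuclei chosen by 5 epidermis genes and in 1.89% of 53 nuclei chosen by 5 companion cell genes. Among 24 nuclei chosen by 5 vessel genes, H4GFP was found in 8.33% (1.03 to 27) after thinning and 20.8% unthinned, at 120 CPM, and H2BRFP in none (0 to 14.2%). The median depth was 2040 counts in cambium nuclei, 3957 in the epidermis set, 1998 in the companion cell set and 3178 in the vessel set.

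On the plates the same rule was applied to counts thinned to 1800 per nucleus, near the droplet depth, and all counts of the chosen nuclei were summed per plate. Rule nuclei were still deeper than other nuclei on each plate, with medians of 4656 to 7946 counts against 4074 to 5926. H4GFP had 167, 324 and 189 CPM in rule nuclei of the VASA cambium plates and 247, 255 and 399 CPM in those of the VASA all hypocotyl plates. In other nuclei it had 50.5, 76.5 and 37.9 CPM on the VASA cambium plates and 59.7, 75.0 and 50.5 CPM on the VASA all hypocotyl plates. The transcript was higher in the rule nuclei of all 6 plates and the groups did not overlap (log2 change 2.27 ± 0.18 (SE), adjusted p = 2.2e-09, edgeR). H2BRFP had 136, 57.1 and 99.4 CPM in rule nuclei of the VASA cambium plates and 158, 106 and 247 CPM in those of the VASA all hypocotyl plates. In other nuclei it had 46.0, 61.8 and 64.5 CPM on the VASA cambium plates and 38.2, 29.0 and 63.9 CPM on the VASA all hypocotyl plates. H2BRFP was higher in rule nuclei on 5 of 6 plates, the exception being VASA cambium replicate 2, and the groups overlapped (log2 change 1.5 ± 0.24, adjusted p = 8.6e-05, edgeR). With the VASA cambium plates alone it was not called (log2 change 0.87, adjusted p = 0.21, edgeR).

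Within the cambium nuclei each reporter went with the gene whose promoter it carries. H4GFP stood at 303 CPM in the 129 cambium nuclei with a PXY count and at 137 CPM in the 128 without. H2BRFP stood at 234 CPM in the 84 cambium nuclei with a SMXL5 count and at 73.6 CPM in the 173 without. Among the other nuclei, 154 had a PXY count and held 302 CPM of H4GFP, and the 1670 without held 30.3 CPM. Nuclei with PXY that fall outside the rule therefore held as much H4GFP transcript as cambium nuclei with PXY.

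The droplet library had 10885 genes with at least 100 counts in passing nuclei, the 5 rule genes and the transgenes left out. Of these, 470 (4.32%) were higher in cambium nuclei by 2-fold or more, and 1200 (11%) were lower by as much. Without the 8 cambium nuclei that also met the rule for another cell type, 508 were higher and 1295 lower. The plates gave 751 of 11500 genes called higher in rule nuclei (6.53%) and 969 called lower (8.43%) in edgeR's quasi-likelihood test with the plate as a block. Of the 470 genes, 422 were tested on the plates, where 282 were called higher and 1 lower. Of the 1200 genes, 673 were tested on the plates, where 386 were called lower and 3 higher. The rule nuclei differed on the plates as nuclei chosen by their own counts of the 5 genes, so this is the same choice made on a second set of nuclei from plants of the same line.

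The 25 genes with the highest lower bound of the ratio included cell wall, transport and transcription factor genes. AT3G18900 was first at 10.1-fold (6.98 to 14.7), with 77 counts in cambium nuclei and 51 in other nuclei. ESE3, an ERF-type transcription factor, was at 7.69-fold (220 and 191 counts), and AIL5, an AP2-type relative of ANT, at 7.54-fold (61 and 54 counts). WAT1, a vacuolar auxin transporter needed for wall thickening, was the most abundant of the 25 with 2067 CPM in cambium nuclei and 439 CPM in other nuclei (4.70-fold, 4.37 to 5.06). Wall genes among them were EXPA4, an expansin (4.48-fold), XTH4, a xyloglucan endotransglucosylase (4.81-fold), and AT1G04680, a pectate lyase (4.54-fold). DWF4, the C-22 hydroxylase of brassinosteroid synthesis, was at 5.5-fold (89 and 108 counts). KICP-02, a kinesin, was at 5.29-fold, PDCB1, a callose-binding protein of plasmodesmata, at 5.75-fold, and NHX4, a sodium/proton exchanger, at 4.97-fold. SETH6, of the NPH3 family, was at 6.62-fold, and BGLU18, a beta-glucosidase of abscisic acid release, at 5.25-fold.

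All 23 of these 25 genes that were tested on the plates were called higher in rule nuclei, with log2 changes of 1.64 to 2.90, and 22 of them were higher on all 6 plates. WAT1 had 1714, 2279 and 1536 CPM in rule nuclei of the VASA cambium plates and 2199, 2369 and 2099.8 CPM in those of the VASA all hypocotyl plates, against 308 to 586 CPM in other nuclei. Its groups were far apart (log2 change 2.19 ± 0.12, adjusted p = 1.1e-11, edgeR). SETH6 had 231 to 627 CPM in rule nuclei and 46.8 to 101 CPM in other nuclei over the 6 plates (log2 change 2.47 ± 0.17, adjusted p = 1.2e-10, edgeR). DWF4 varied more, with 104, 38.1 and 19.9 CPM in rule nuclei of the VASA cambium plates and 168, 226 and 66.5 CPM in those of the VASA all hypocotyl plates, against 3.99 to 24.8 CPM in other nuclei. It was higher on all 6 plates, although 1 value of the rule nuclei lay within the range of the other nuclei (log2 change 2.80 ± 0.31, adjusted p = 3.6e-07, edgeR). In WT the ratio was above 1 for all 25 genes, and lowest for XTH4 at 1.29.

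**Figure D2:**
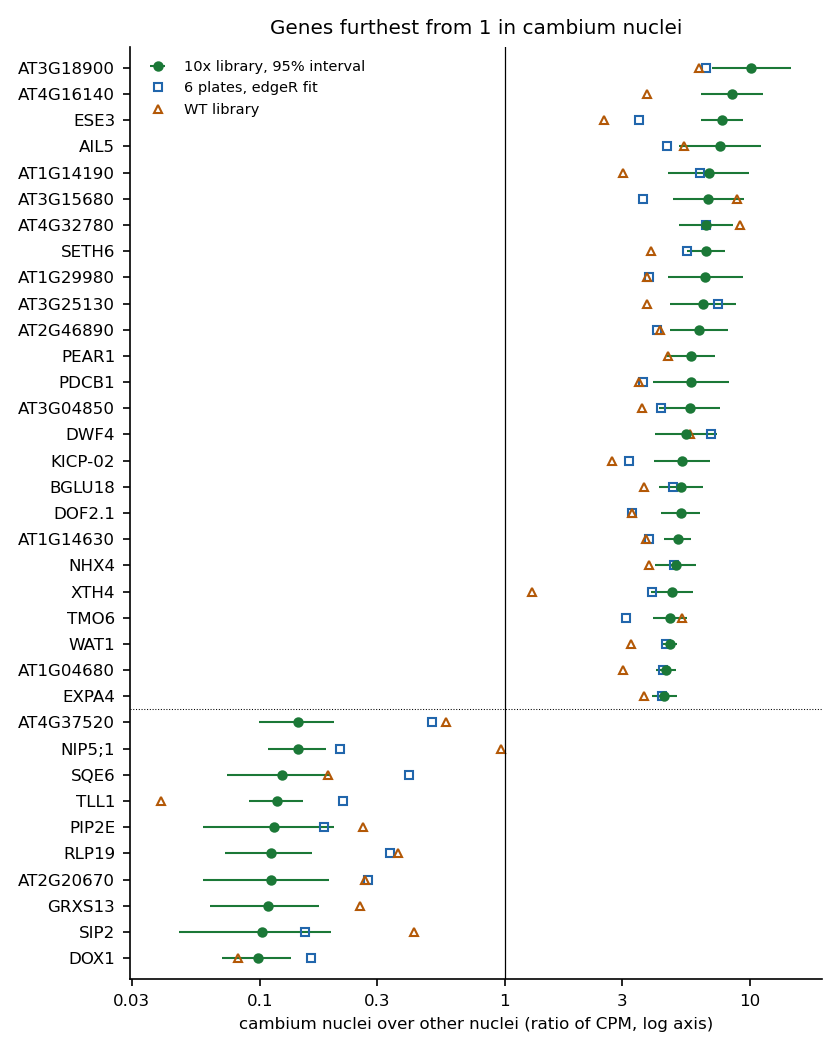
Ratio of cambium nuclei to other nuclei (CPM over CPM, log axis) for the 25 genes highest and, below the dotted line, the 10 lowest in the droplet library (circles with 95% counting intervals), with the plates (squares, from the edgeR log2 change) and WT (triangles). The 25 lay between 4.48 and 10.1 in the droplet library and above 1 in both other sets where tested, and the 10 lay between 0.098 and 0.144.

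The 10 genes at the low end were genes of defence, water and boron transport and lipid metabolism. DOX1, an alpha-dioxygenase of fatty acids, had 40 counts in cambium nuclei and 2720 in other nuclei (66.6 and 679 CPM, ratio 0.098). NIP5;1, a boric acid channel, had 93.3 and 652 CPM, PIP2E, an aquaporin, 20.0 and 175 CPM, and SQE6, a squalene epoxidase, 31.6 and 258 CPM. TLL1, a lipase, was at a ratio of 0.117, RLP19, a receptor-like protein, at 0.111, and SIP2, an alpha-galactosidase of raffinose breakdown, at 0.103. On the plates DOX1 had 55.8, 57.1 and 59.6 CPM in rule nuclei of the VASA cambium plates and 31.6, 51.0 and 0 CPM in those of the VASA all hypocotyl plates. Other nuclei had 136 to 244 CPM on the VASA cambium plates and 287 to 648 CPM on the VASA all hypocotyl plates (log2 change -2.63 ± 0.31, adjusted p = 1.1e-06, edgeR). All 9 of the 10 genes that were tested on the plates were called lower, and NIP5;1, with a WT ratio of 0.968, was nearest to 1 there.

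On the plates the largest log2 change among genes of at least 20 CPM was that of AT5G50090. It had 47.8, 121 and 99.4 CPM in rule nuclei of the VASA cambium plates and 73.6, 113 and 181 CPM in those of the VASA all hypocotyl plates, against 0.665 to 16.9 CPM in other nuclei (log2 change 3.70 ± 0.35, adjusted p = 3.0e-08, edgeR). CDC20.2, an activator of the anaphase-promoting complex, was higher on 5 of 6 plates (log2 change 2.73 ± 0.43, adjusted p = 6.3e-05, edgeR). In the droplet library CDC20.2 stood at 112 CPM in cambium nuclei and 104 CPM in other nuclei, a ratio of 1.07 (0.81 to 1.39). At the other end ELP, an extensin-like gene, PP2-A1 and NAKR1, of phloem companion cells, PHT1;1, a phosphate transporter, and CYP83A1, of glucosinolate synthesis, had log2 changes of -5.08 to -3.66. PP2-A1 was at 0, 0 and 4.97 CPM in rule nuclei of the VASA cambium plates and 5.26, 0 and 9.50 CPM in those of the VASA all hypocotyl plates, against 23.2 to 117 CPM in other nuclei. The groups did not overlap. In droplet nuclei of at least 2500 counts, where 79 met the rule, PP2-A1 stood at a ratio of 1.09 and NAKR1 at 2.19, and 1 nucleus gave 10 of the 27 NAKR1 counts in cambium nuclei.

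**Figure D3:**
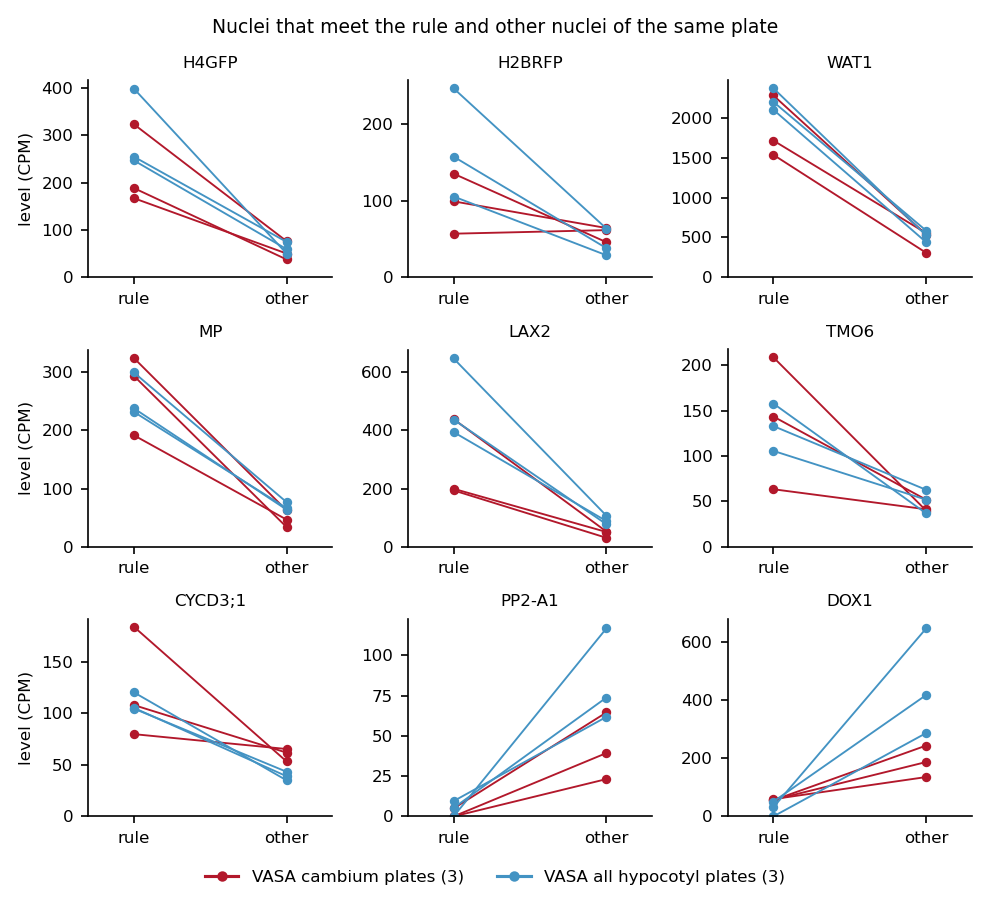
Level in CPM (linear axes from 0) of 9 genes in nuclei that meet the rule (left) and other nuclei (right) of the same plate, with 1 line per plate, 3 VASA cambium plates in red and 3 VASA all hypocotyl plates in blue. WAT1 lay at 1536 to 2369 CPM in rule nuclei and 308 to 586 CPM in other nuclei, and H2BRFP is higher in rule nuclei on 5 of 6 plates. PP2-A1 and DOX1 are lower in rule nuclei on each plate, and the other genes shown are higher.

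Pathway and marker lists were read by how many of their members moved, beside the shares over all genes in the droplet library, 4.32% higher and 11% lower by 2-fold or more. Over all genes the median ratio was 0.99 there and the median log2 change -0.02 on the plates. Overlapping genes are annotated at MP, REV, RUL1, AIL6, CYCD3;1, CKX6, ARR9, MAX4, PP2-A1 and NAKR1 among the genes named here, and since the strand used in counting is not given in the sources used here, their counts may hold reads of the other gene.

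Regulators of vascular patterning were higher as a group. The HD-ZIP III factors and their partners, which set xylem identity and cambium activity, had 3 of 8 members at least 2-fold higher and none lower, with a median ratio of 1.77. MP (ARF5), the auxin response factor of procambium formation, was at 4.38-fold (151 and 230 counts), REV at 2.64-fold and ATHB8, the procambium marker, at 2.20-fold (578 and 1752 counts). On the plates 7 of 8 were called higher. MP had 191, 324 and 293 CPM in rule nuclei of the VASA cambium plates and 231, 299 and 238 CPM in those of the VASA all hypocotyl plates, against 33.9 to 76.7 CPM in other nuclei (log2 change 2.32 ± 0.19, adjusted p = 2.1e-09, edgeR). PHV was the exception, with a log2 change of 0.07 (adjusted p = 0.87, edgeR).

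The receptor pathway around PXY moved less. Of 6 members of the TDIF list measured, ER (2.82-fold), the ERECTA receptor kinase, and RUL1 (2.45-fold), a receptor kinase that promotes cambium activity, were at least 2-fold higher, and the median was 1.33. The TDIF genes CLE41 and CLE44 had ratios of 1.26 (0.869 to 1.78) and 0.923 (0.625 to 1.32) in the droplet library. On the plates 3 of 7 were called higher, ER, RUL1 and the receptor-like gene MOL1, and CLE41 was called lower (log2 change -1.04, adjusted p = 0.0062, edgeR). Among LBD, KNOX, AIL and HAM factors, AIL5, AIL6 (5.03-fold) and LBD4 (2.20-fold), which acts at the phloem boundary of the procambium, were higher, 3 of 10 measured, and these 3 were called on the plates too. KNAT1, a homeobox gene of the cambium, had 313 counts in cambium nuclei and 1956 in other nuclei, a ratio of 1.07 (0.945 to 1.2). HAM4, a GRAS factor, was called lower on the plates (log2 change -3.19, adjusted p = 3.0e-06, edgeR), with 9 and 104 counts in the droplet library (ratio 0.578, 0.257 to 1.14).

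Early phloem regulators were the list with the highest summed ratio, 4.41 (4.06 to 4.78), with 6 of 6 measured members at least 2-fold higher and 5 of 6 called higher on the plates. Those measured in the droplet library are the Dof factors PEAR1 (5.75-fold), PEAR2 (2.65-fold), DOF2.1 (5.22-fold) and TMO6 (4.74-fold), and OPS (4.20-fold) and CVP2 (2.91-fold), which act in sieve element formation. PEAR1 and PEAR2 were not tested on the plates, where the 6 were DOF2.1, TMO6, OPS, CVP2 and SMXL4, which were called, and SMXL3, which was not (adjusted p = 0.068, edgeR). The call of SMXL4 was lost when 1 plate or another was left out (adjusted p up to 0.38, without VASA cambium replicate 3, edgeR). PEAR2 depended on the rule, with a ratio of 0.695 when ANT was left out of it and 0.932 when SMXL5 was. TMO6 had 144, 63.5 and 209 CPM in rule nuclei of the VASA cambium plates and 158, 106 and 133 CPM in those of the VASA all hypocotyl plates, against 36.9 to 62.8 CPM in other nuclei (log2 change 1.64 ± 0.23, adjusted p = 1.0e-05, edgeR). The lowest rule value, 63.5 CPM, stood next to the highest of the other nuclei. DOF2.1 lies 10782 bases from the rule gene LBD11. The list's ratio was 5.47 in WT.

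Cell division genes gave few counts, and genes of mitosis and of other phases did not move alike. The cell cycle list had a summed ratio of 2.27 (2.01 to 2.57), 2 of 3 measured members at least 2-fold higher and 3 of 5 called higher on the plates. CYCD3;1, the D-type cyclin of cambial cells, was at 3.48-fold (142 and 272 counts), MCM5, of the replication helicase, at 2.40-fold (32 and 89 counts), and CDKA;1 at 0.997 (0.614 to 1.55). MCM5 was called higher on the plates (adjusted p = 0.0066, and 0.055 without VASA all hypocotyl replicate 2, edgeR). CYCD3;1 had 79.7, 108 and 184 CPM in rule nuclei of the VASA cambium plates and 105, 120 and 105 CPM in those of the VASA all hypocotyl plates, against 34.9 to 65.3 CPM in other nuclei (log2 change 1.41 ± 0.22, adjusted p = 4.4e-05, edgeR). For 11 genes of mitosis summed, cambium nuclei stood at 75.0 CPM and other nuclei at 73.9 CPM. CYCA1;1, an A-type cyclin, gave 21 of the 45 counts in cambium nuclei and 35 of the 296 in other nuclei. The members did not move alike, from KNOLLE (0 and 30 counts) and CYCB2;2 (2 and 53 counts) to CDKB2;1 (6 and 12 counts). With every nucleus thinned to 1200 counts, 4.28% (2.16 to 7.53) of cambium nuclei and 3.18% (2.42 to 4.09) of other nuclei held a count of them, and the companion cell set held 7.55% (2.09 to 18.2). No difference in the sum of these 11 genes was detectable at this depth. A published list of dividing root cells stood at 1.23 (1.01 to 1.48) in the droplet library and 2.02 (1.51 to 2.65) in WT. Its member CYCA1;1, which is also among the 11 and has fewer than 100 counts, was at 4.00-fold (2.22 to 7.07, 21 and 35 counts).

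Auxin transporters were higher on the plates, and auxin response genes mostly were not. In the droplet library 3 of 7 transporters measured were at least 2-fold higher and none lower, with a median of 1.91. LAX2, an influx carrier of the vasculature, was at 3.44-fold (239 and 464 counts), the efflux carrier PIN3 at 2.53-fold, and AUX1, an influx carrier, at 1.91-fold. LAX3 was at 1.14 (0.764 to 1.66), and PIN7, with fewer than 100 counts, at 0.451 (0.142 to 1.10, 5 and 74 counts). On the plates 7 of 8 transporters were called higher and PIN7 was not. The call of LAX3 was lost when 1 plate or another was left out (adjusted p up to 0.36, without VASA cambium replicate 3, edgeR). LAX2 had 199, 438 and 194 CPM in rule nuclei of the VASA cambium plates and 437, 394 and 646 CPM in those of the VASA all hypocotyl plates, against 31.3 to 107 CPM in other nuclei (log2 change 2.61 ± 0.17, adjusted p = 6.9e-11, edgeR). Of 18 response genes measured, IAA30 (5.03-fold, 67 and 89 counts) was the only one at least 2-fold higher, and on the plates 5 of 17 were called higher and 2 lower. IAA12, the repressor that binds MP, was at 1.84-fold (log2 change on the plates 0.79, adjusted p = 0.0092, and 0.066 without VASA all hypocotyl replicate 2, edgeR).

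Cytokinin genes split. CKX6 (3.44-fold) and CKX7 (2.53-fold), oxidases that break cytokinin down, were at least 2-fold higher. LOG7 (0.202) and IPT3 (0.223), of cytokinin synthesis, and the response regulator ARR10 (0.482, with 7 and 97 counts) were at least 2-fold lower. Other LOG genes lay on the opposite side with fewer than 100 counts each, LOG3 at 8.68-fold (4.66 to 16.4, 26 and 20 counts) and LOG4 at 4.71-fold (2.05 to 10.5, 12 and 17 counts). The receptor AHK4 was at 1.81-fold and the response regulator ARR9 at 1.77-fold, while ARR5 was at 0.945 (0.873 to 1.02). On the plates CKX6, AHK4 and ARR9 were called higher, and LOG7, IPT3, ARR10, ARR7 and AHK3 lower, 3 and 5 of 16 tested. The calls of ARR10, ARR7 and AHK3 were lost when 1 plate or another was left out (adjusted p up to 0.10, 0.12 and 0.17, edgeR). CKX6 had 79.7, 76.2 and 224 CPM in rule nuclei of the VASA cambium plates and 274, 499 and 418 CPM in those of the VASA all hypocotyl plates. Other nuclei had 47.9 to 92.8 CPM on the VASA cambium plates and 92.0 to 211 CPM on the VASA all hypocotyl plates. The change between rule nuclei and other nuclei was not called as different between the gates, for CKX6 as for every gene.

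Strigolactone genes, whose pathway the study examined in vessel formation, were not among those that moved most. None of 11 measured was at least 2-fold higher or lower, and the median was 0.962. The synthesis genes MAX4 (1.97-fold, 1.5 to 2.56, 75 and 254 counts) and CLAMT (1.71-fold, 1.22 to 2.36) were the highest. On the plates these were called higher (log2 changes 1.01 and 1.25, adjusted p = 0.038 and 0.00042, edgeR), and the repressor SMXL6, the karrikin repressor SMAX1 and the receptor KAI2 were called lower. None of these calls but that of CLAMT held when each plate was left out in turn: the adjusted p without the plate that changed it most was 0.29 for MAX4 (without VASA all hypocotyl replicate 2), 0.055 for SMXL6 (without VASA cambium replicate 2), and 0.12 for SMAX1 and 0.20 for KAI2 (without VASA cambium replicate 3). The receptor D14 had 18 and 185 counts, a ratio of 0.649 (0.377 to 1.06). The F-box gene MAX2 had 18 and 118 counts, a ratio of 1.02 (0.583 to 1.68).

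Published marker lists of cambium and procambium were higher in cambium nuclei, and lists of xylem parenchyma did not move alike. The leaf cambium list without WOX4 had 4 of 9 measured members at least 2-fold higher, a median of 1.75 and 6 of 10 called higher on the plates. The root procambium list had 4 of 5 at least 2-fold higher, a median of 2.90 and 4 of 5 called higher. One list of leaf xylem parenchyma genes, which holds LAX2, MP and ACL5 too, had 7 of 10 at least 2-fold higher, a median of 3.53 and 10 of 10 called higher on the plates. Its member TBL36, of xylan acetylation, was at 4.17-fold (493 and 789 counts) and its member BRL2, a receptor-like kinase of the vasculature, at 3.64-fold (132 and 242 counts). A second list of leaf xylem parenchyma genes had none of 9 measured at least 2-fold higher and 3 lower, with a median of 0.875 and a summed ratio of 0.813 (0.749 to 0.881). The 3 were PAL4 (0.099), of phenylpropanoid synthesis, NUDT10 (0.196), a Nudix hydrolase, and AT5G46730 (0.256). On the plates 2 of its 5 members tested, CAD6 and AT3G53100, were called higher, and both calls were lost when 1 plate or another was left out (adjusted p up to 0.22 and 0.15, edgeR). In WT its ratio was 1.54 (1.34 to 1.77). The root xylem list stood at 0.884 (0.769 to 1.01), with 1 of 7 measured members at least 2-fold higher and 1 lower.

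In the droplet library most lists of mature cell types were lower, and a list of leaf phloem parenchyma genes was not. CESA8, of secondary walls, had 0 of 244 counts in cambium nuclei, where a count of 0 allows up to 3 counts (5.00 CPM), against 60.9 CPM in other nuclei. Of 14 vessel genes measured, 8 were at least 2-fold lower and none higher, including VND6, the vessel master factor (4 and 160 counts), and CESA4 (2 and 237 counts). ACL5, a thermospermine synthase that holds back vessel maturation, gave 51.7% of the vessel list's counts in cambium nuclei and was at 1.74-fold (1.47 to 2.05). It was called higher on the plates (adjusted p = 0.0040, edgeR), a call lost when VASA cambium replicate 2 was left out (adjusted p = 0.062). On the plates, where 3 vessel genes were tested, the summed list was higher in rule nuclei on 6 of 6 plates (log2 ratios of 0.07 to 2.94, mean 0.86), with CESA4 at a log2 change of 1.23 (adjusted p = 0.12, edgeR). A single rule nucleus held 226 counts of the list there, and these sums were not repeated without it. CESA4 was called higher with no filter on low counts (log2 change 1.07, adjusted p = 0.031, edgeR). In the droplet library VND1 (1.60, 1.14 to 2.21) and VND2 (1.84, 1.21 to 2.72), of the early vessel factors, also lay above 1. Their lowest ratios over the alternatives were 0.998 and 0.877. The other VND genes did not share this: VND4 was at 1.02 (0.387 to 2.27) and VND3 at 0.477 (0.126 to 1.29, 4 and 56 counts). VND7 was at 0.513 (0.229 to 1.01, 9 and 117 counts), and VND5 had 0 and 44 counts. APL, of phloem identity, was at 0.267, PP2-A1 at 0.303 and the epidermis list at 0.337 (0.248 to 0.449). On the plates 5 of 7 companion cell genes were called lower, and SULTR2;1 and CALS7, a callose synthase of the phloem, were not called. In the droplet library SULTR2;1 (1.01, 0.852 to 1.18) and AHA3 (1.08, 0.594 to 1.84), a proton pump of the phloem, lay near 1. The leaf phloem parenchyma list stood at 1.31 (1.14 to 1.51), with AT2G01913 (4.02-fold) and AT1G29160 (2.28-fold) at least 2-fold higher among 6 measured and none lower. On the plates 1 of its 5 members tested, BZIP9, was called lower (adjusted p = 0.010, edgeR) and none higher, and that call was lost when VASA cambium replicate 1 was left out (adjusted p = 0.051). Summed, that leaf list was lower in rule nuclei on each of the 6 plates (log2 ratios of -1.49 to -0.004, mean -0.777). A further list of 5 phloem parenchyma genes stood at 0.462 (0.292 to 0.698) in the droplet library. BZIP9 gave 87.5% of its counts in cambium nuclei. In WT the companion cell list stood at 1.32 (1.05 to 1.64), against 0.748 (0.648 to 0.860) in the droplet library at 4 weeks, and SULTR2;1 gave 78.7% of that list's counts in cambium nuclei.

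**Figure D4:**
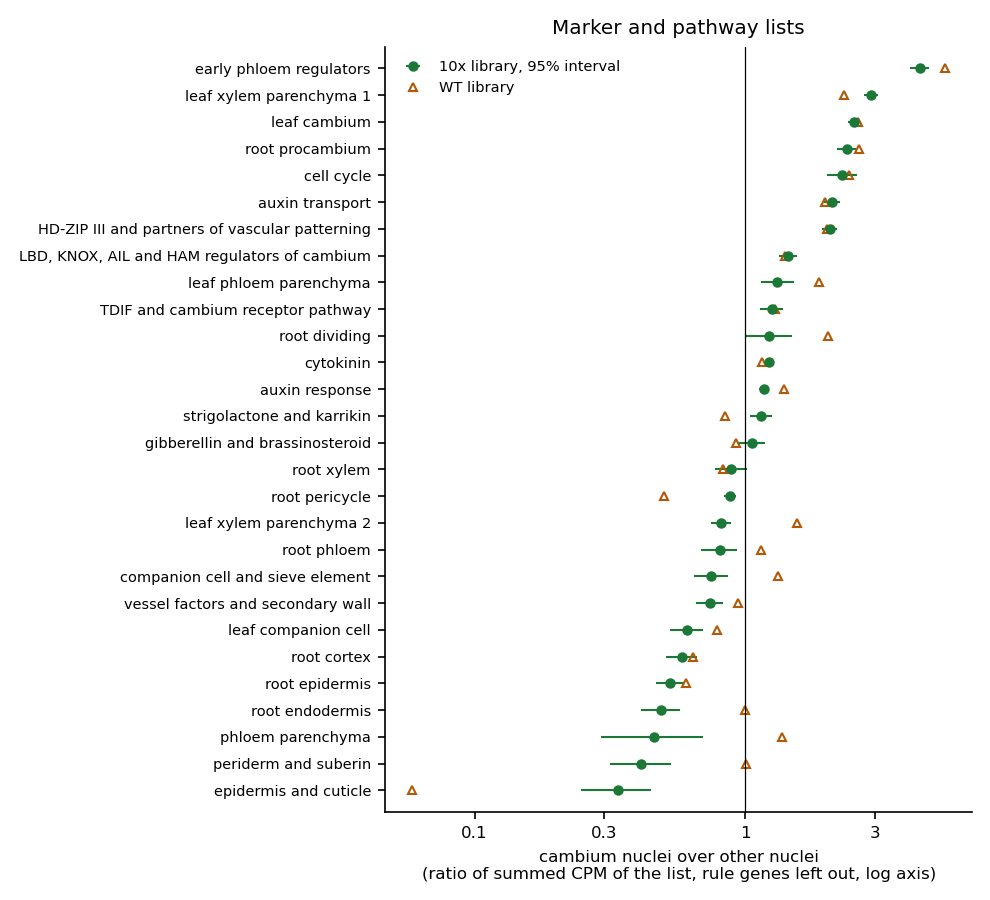
Ratio of summed CPM between cambium nuclei and other nuclei (log axis) for 28 marker and pathway lists, the rule genes left out, in the droplet library (circles with 95% counting intervals) and in WT (triangles). Early phloem regulators were highest at 4.41 and the epidermis list lowest at 0.337 in the droplet library.

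A few cambium nuclei carried markers of other types. Applied in the same way to 5 marker genes each, the rule found 24 vessel, 53 companion cell, 5 phloem parenchyma, 18 periderm and 61 epidermis nuclei, of which 1, 4, 0, 1 and 2 were also cambium nuclei. The deepest cambium nucleus, with 8758 counts, was 1 of these 8, with 12 counts of the companion cell genes and 10 of NAKR1. When all nuclei were clustered without the rule genes and transgenes, 131 of the 257 cambium nuclei (51.0%) fell in 1 cluster of 264 nuclei led by AT4G16140, LOG6, AT1G69080, ESE3, OPS and TMO6. A further 24 lay in a cluster of 100 nuclei whose leading genes included VND6 and VND3. Another 20 lay in a cluster of 186 led by AT1G11170, and 19 in a cluster of 183 whose leading genes included BGLU31 and PR5. A cluster of 174 with BGLU1 and VSP2 held 12, and a cluster of 72 with ATCG00380 and ATMG00580, of the organelle genomes, held 11. In a cluster of 20 whose leading genes included TPX2 and HINKEL, genes of mitosis and cytokinesis, 5 were cambium nuclei. The rest were spread over other clusters. The 126 cambium nuclei outside the main cluster held H4GFP at 194 CPM, and the 131 inside at 268 CPM. Clusters rest on the same genes as the ratios above and are a description.

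Cambium nuclei with PXY and those with SMXL5 differed in their other genes. In the droplet library 97 had PXY without SMXL5, 52 SMXL5 without PXY, 32 both and 76 neither. This split uses 2 of the rule genes, so its values are a description of the members, and the plates (63 and 24 nuclei) and WT (22 and 19 nuclei) were split in the same way. H4GFP was at 291 CPM in nuclei with PXY and 141 CPM in those with SMXL5 (ratio 2.07, 1.15 to 3.98), and H2BRFP at 65.1 and 272 CPM (0.240, 0.119 to 0.467). On the plates the ratios were 4.11 (2.42 to 7.49) and 0.168 (0.103 to 0.268). The reporters thus lay on opposite sides in both sets.

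Early phloem regulators were lower in nuclei with PXY than in those with SMXL5 in all 3 sets. Their summed level was 1120.1 and 3260.0 CPM in the droplet library (ratio 0.344, 0.291 to 0.406), with ratios of 0.529 (0.435 to 0.646) on the plates and 0.146 (0.097 to 0.215) in WT. PEAR1 had 17 counts in the 97 nuclei with PXY and 78 in the 52 with SMXL5 (0.094, 0.052 to 0.160), and 2 and 5 counts on the plates (0.139, 0.013 to 0.850). UMAMIT31, of an amino acid transporter family, had 6 and 62 counts (0.042, 0.015 to 0.096), and 3 and 25 counts on the plates (0.042, 0.008 to 0.137). AT3G15680 had 12 and 44 counts, and 1 and 32 on the plates. AT2G39850, AT4G21730 and GRP3S, also lower with PXY in the droplet library, stood above 1 on the plates, at 1.39, 1.39 and 1.22. Those plate ratios rest on few counts, 12 and 3, 4 and 1, and 7 and 2.

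The leaf xylem parenchyma list that holds LAX2, MP and ACL5 ran the other way. Its ratios were 2.54 (2.11 to 3.09) in the droplet library, 2.42 (2.1 to 2.80) on the plates and 3.32 (2.32 to 4.87) in WT. The second leaf xylem parenchyma list was not compared in this way. LAX2 had 137 counts in nuclei with PXY and 8 in those with SMXL5 (7.39, 3.65 to 17.5), and its ratio on the plates was 3.81 (2.41 to 6.36). MP had 82 and 5 counts (7.08, 2.91 to 22.4), and 2.40 (1.52 to 4.00) on the plates. PUB29, a U-box ubiquitin ligase, had 60 counts and 1 count, and 80 and 2 on the plates. No count was found in the 52 nuclei with SMXL5 for ACL5 (62 counts with PXY), DWF4 (56 counts) and MAX4 (41 counts). If those 52 nuclei were given 3 counts of each, the ratios would be 8.92, 8.05 and 5.90. The lower bounds of the exact counting intervals were 7.04, 6.34 and 4.58. The counts of ACL5, DWF4 and MAX4 came from 11.3, 19.6 and 11.3% of the nuclei with PXY. Their ratios on the plates were 1.18 (0.623 to 2.38), 1.91 (1.07 to 3.66) and 1.25 (0.448 to 4.32).

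The vessel list did not keep its direction. Its ratio of nuclei with PXY to nuclei with SMXL5 was 9.0 (4.26 to 22.8) in the droplet library and 10.6 (3.44 to 53.0) in WT, but 0.143 (0.114 to 0.180) on the plates. In the droplet library ACL5 gave 62 of the 146 counts with PXY and 0 of the 7 with SMXL5. Over all cambium nuclei ACL5 gave 183 of the list's 354 counts, VND1 47 and VND2 33. VND6 gave 4, CESA4 2 and CESA8 0. On the plates 226 of the 267 counts on the SMXL5 side came from 1 nucleus. Without the top nucleus of each side the plates' ratio was 0.757 (0.518 to 1.12). The 32 droplet nuclei with both genes held the highest summed level of vessel genes, 2036 CPM, with 53 of 190 counts in 1 nucleus. Of 2578 genes with at least 30 counts, 228 were at least 2-fold higher with PXY and 168 at least 2-fold higher with SMXL5.

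**Figure D5:**
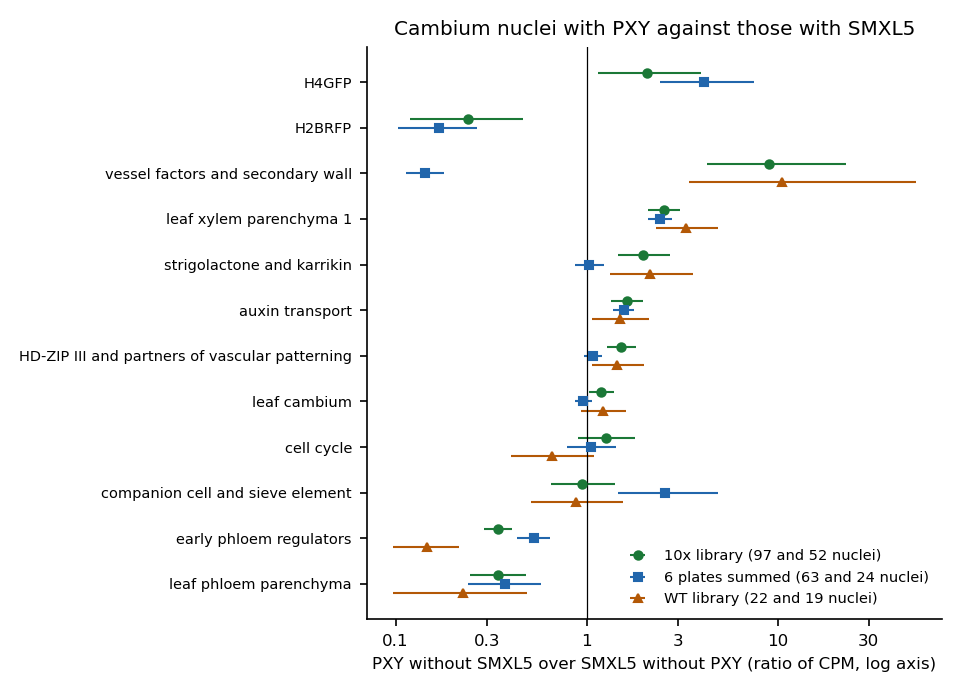
Ratio of cambium nuclei with PXY and no SMXL5 to those with SMXL5 and no PXY (CPM over CPM, log axis, 95% counting intervals) for both reporters and 10 gene lists, in the droplet library, the 6 plates summed and WT. H4GFP and H2BRFP lay on opposite sides of 1 in each set with a value. Early phloem regulators lay below 1 and the first list of leaf xylem parenchyma genes above 1 in each set. The vessel list, which holds ACL5, lay at 9.0 and 10.6 in the droplet libraries and at 0.143 on the plates.

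The share of nuclei that met the rule was not shown to differ between the gates. At 1800 counts per nucleus it was 6.71, 7.58 and 8.22% on the VASA cambium plates (21, 21 and 24 nuclei), against 8.53, 14.7 and 7.73% on the VASA all hypocotyl plates (25, 34 and 14 nuclei). The groups overlapped, and the mean difference was -2.80 percentage points (two-sided exact permutation test, p = 0.20, where 3 against 3 plates cannot go below 0.10). With the rule on the deposited counts, not thinned, the VASA cambium plates had 18.8, 22.7 and 21.9%. The VASA all hypocotyl plates then had 22.9, 30.2 and 26.5%. Without thinning the groups did not overlap, and the mean difference was -5.35 percentage points (two-sided exact permutation test, p = 0.10). The plates' nuclei were not filtered on fluorescence here, as the study did. In WT 80 of 684 nuclei met the rule, 11.7% (9.38 to 14.3). The change between rule nuclei and other nuclei was also compared between the gates by an interaction term, chosen after the data were seen. It called 0 of 11502 genes (edgeR), with 510 at an unadjusted p under 0.05, 4.43% of them.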

How the data were processed

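Single nuclei of Arabidopsis hypocotyls were sequenced from 1 droplet library of the reporter line at 4 weeks, 6 VASA-seq plates of the same line (3 VASA cambium, 3 VASA all hypocotyl) and 1 WT droplet library. The deposited values are whole-number counts per gene and barcode. The submitters' processing notes name Cell Ranger 6.0.1, STAR 2.7.8a and the build TAIR10; whether counting used the strand is not given in the sources used here. Passing nuclei had over 1200 and under 10000 counts (plates over 1200 and under 15000, WT over 1500 and under 15000) and under 20% mitochondrial counts.

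Droplet counts were summed over cambium nuclei and over other nuclei and divided by total counts to give CPM. Ratios carry exact 95% intervals that cover counting error only, and a gene was read as higher or lower at 2-fold with at least 100 counts. Plate sums were tested with edgeR 4.0.16 in R 4.3.3 (TMM, filterByExpr, quasi-likelihood test, plate as a block, Benjamini-Hochberg, 0.05). The block joins the 2 sums of each plate, which share the plate. DESeq2 1.42.0 was an alternative. Clusters came from Seurat 5.3.0 (15 components, resolution 1.2) and doublet scores from scanpy 1.11.5, with all nuclei kept. The scripts were tested on simulated data.

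Genes were named by rule: the 25 with the highest lower bound and the 10 with the lowest upper bound of the ratio, the rule genes and reporters, list members at least 2-fold changed or among the 4 with most counts, and the 10 highest and 5 lowest log2 changes on the plates. AHK3, AHK4, ARR7, D14, HAM4, IAA12, MAX2, MOL1, SMAX1, SMXL6, UMAMIT31, PUB29, CAD6, CALS7, LAX3, LOG3, LOG4, PIN7, SMXL3, SMXL4, KNOLLE, CYCB2;2, CDKB2;1, AT2G39850, AT4G21730, GRP3S, VND3, VND4, VND5, VND7 and the cluster genes were named after their values were seen. Members, lists and tests were chosen with earlier results of these data known. Alternatives were other thresholds of the rule, rules without 1 gene, a depth minimum of 2500 counts, other filters and references, no block, and leaving out each plate.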

Additional observations from a re-analysis of the deposited data

How the results depend on the processing

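Limits. The droplet ratios rest on 1 library and 1 pool of plants, and the plates on 1 preparation per gate. Membership follows sparse counts: 28 nuclei held the minimum of 3. Of the named genes called on the plates, CAD6 alone changed direction in an alternative (log2 change -0.087 with the VASA cambium plates alone), and 0 genes called in both the reported fit and an alternative were called in opposite directions.

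The number of cambium nuclei, 257, was 79 at 2500 or more counts, 137 without WOX4 and 154 without ANT in the rule. Their share, 12.3%, was 14.7% at 2 or more counts of the rule genes, 15.1% at 2500 or more counts, and 9.71, 6.58, 7.40 and 10.2% without PXY, WOX4, ANT and SMXL5 in the rule. Genes at least 2-fold higher and lower numbered 1130 and 2451 with a minimum of 30 counts, 3201 and 8581 with none, and 281 and 778 at 2500 or more counts, where fewer genes were tested. With the cambium nuclei of the main cluster alone, added after the data were seen, 1970 were lower. H2BRFP stood at 5.20-fold without WOX4 and 2.80-fold without SMXL5 in the rule, and H4GFP at 5.06-fold without ANT and at 9.40-fold against nuclei with 0 counts of the rule genes. NAKR1 (2.19), PP2-A1 (1.09) and AT1G29160 (0.842) at 2500 or more counts and PEAR2 without ANT (0.695) or SMXL5 (0.932) turned round, and the cause was not tested. Of 336 list ratios recomputed under the alternatives, 80 left the reported counting interval, in 27 of 28 lists. Apart from those that turned round, 190 of 1416 gene ratios did so, in 88 of 118 named genes. AT3G15680 ranged from 2.35 to 15.0 and PEAR1 from 3.20 to 19.2. The counting intervals thus do not cover the choice of rule, depth or reference.

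On the plates 1731 genes were lower with no filter on low counts, 484 higher with the VASA all hypocotyl plates alone, and 265 higher and 267 lower with the VASA cambium plates alone. Leaving out 1 plate gave 556 to 696 higher and 678 to 935 lower, and for the share of rule nuclei differences of -4.09 to -0.63 percentage points. The difference in share was -5.35 percentage points with the rule on deposited counts and -2.56 with at least 2500 counts. Without the replicate block 709 genes were higher and 797 lower, and DESeq2 called 588 and 769. Of 88 named genes and reporters called on the plates, 17 lost the call without 1 plate or another, 8 without the block and 9 with DESeq2. Among genes not called, these log2 changes turned sign: PHV (0.07 as reported, -0.059 with no filter, -0.16 with VASA all hypocotyl plates alone, and -0.027 to 0.17 with 1 plate left out), SULTR2;1 (0.19, -0.039), CLE44 (-0.52, 0.083), PIN7 (-0.41, 0.12) and CALS7 (-0.80, 0.42), each as reported and with VASA all hypocotyl plates alone, and UMAMIT31 (-0.83, 0.022 there and 0.13 with the rule on deposited counts). UMAMIT31 was called lower with no filter (-0.96), with the VASA cambium plates alone (-1.98) and without VASA all hypocotyl replicate 3 (-1.88), and SULTR2;1 higher with the rule on deposited counts (1.02).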

Other observations

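Gibberellin and brassinosteroid genes showed little difference beyond DWF4. Of 8 list members measured in the droplet library, BRL1, a brassinosteroid receptor of the vasculature, was at least 2-fold higher in cambium nuclei (2.01-fold, 1.43 to 2.78, with 49 and 163 counts), and none was lower. On the plates BRL1 was called higher, with a log2 change of 1.03, and the receptor BRI1 and its partner BAK1 lower, with log2 changes of -0.72 and -0.74 (edgeR), and both calls were lost without VASA all hypocotyl replicate 1 (adjusted p = 0.054 for BRI1 and 0.16 for BAK1, edgeR). The DELLA gene RGA had 36 counts in cambium nuclei and 354 in other nuclei, a ratio of 0.679 (0.468 to 0.958), and was not called on the plates.

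Published lists of outer root tissues lay below 1 in cambium nuclei. Their summed ratios were 0.581 (0.507 to 0.663) for root cortex, 0.488 (0.413 to 0.574) for root endodermis and 0.528 (0.466 to 0.595) for root epidermis. In WT the root endodermis list stood at 1.00 (0.805 to 1.23). Of the leaf companion cell list, 6 of 7 genes tested on the plates were called lower and none higher.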
